A study of Mus musculus with 12 samples.

Results

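Genes that PFI-3 moved in one direction at every stage were sought in 6 pairs of C2C12 libraries. Each pair held a PFI-3 and a DMSO library of the same stage and replicate letter. One direction in all pairs does not mean an effect of one size at each stage. Members are the genes that were higher with PFI-3 in all 6 pairs, or lower in all 6. They number 2860 of the 16288 genes listed in any library, 17.6%, with 1410 higher (8.66%) and 1450 lower (8.9%). C2C12 is an immortalized mouse myoblast line, which stops dividing and fuses into myotubes when serum is lowered.

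Each of the 6 groups held 2 libraries, named A and B, from biological duplicates. Cells were harvested while proliferating in growth medium (GM), or 24 h or 48 h after the change to differentiation medium with horse serum and insulin (DM 24h and DM 48h). Every group received either the DMSO vehicle or 50 uM PFI-3, beginning 12 h before harvest for GM and 12 h ahead of induction for the other stages, with renewal every 24 h in the differentiation medium. The GM cells had therefore been exposed for the shortest time, so stage and length of exposure cannot be told apart.

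PFI-3 binds the bromodomains of BRM and BRG1, the ATPases of the SWI/SNF chromatin remodeller encoded by Smarca2 and Smarca4, and the bromodomain of the PBAF subunit encoded by Pbrm1. A bromodomain is a pocket that holds acetylated lysine, as on histone tails. In muscle cells, BRG1 and BRM are known to open chromatin at muscle genes together with MyoD.

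Total expected counts ran from 12576374 to 13658352 per library, and levels are given as counts per 1000000 (CPM) scaled by the trimmed mean of M values (TMM). Replicates differed more at GM than later. The SD over genes of the log2 ratio of library B to library A was 0.367 (DMSO) and 0.333 (PFI-3) at GM, against 0.144 to 0.168 after induction. The 14 myoblast and myotube markers were all listed, while the leukocyte markers Adgre1, Cd3e, Ms4a1 and Tyrobp and the endothelial markers Erg and Tie1 were not listed in any library. Of 10 markers each, 5 leukocyte and 8 endothelial markers were listed. The endothelial sum was at most 3.28 CPM at GM and DM 24h. At DM 48h it was 8.51 to 10.6 CPM in DMSO and 3.37 to 4.45 CPM with PFI-3. At GM, osteoblast and chondrocyte markers summed to 1540 to 2260 CPM in DMSO and 1140 to 3010 CPM with PFI-3. Neuron and Schwann cell markers summed to 113 to 180 and 66.4 to 87.8 CPM there.

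A model with a term for stage and a term for treatment was fitted over all 12545 genes that passed a filter on low counts (edgeR's quasi-likelihood test, Benjamini-Hochberg adjustment). A gene is "called" where the adjusted p of the treatment term was under 0.05. This called 3026 genes (24.1%), of which 1409 were higher (11.2%) and 1617 lower (12.9%) with PFI-3. Of the 2860 members, 2791 passed the filter (22.2% of the genes tested, 11% higher and 11.2% lower) and 69 did not. The called members number 2123 (16.9%), 1076 of them higher (8.58%) and 1047 lower (8.35%). The balance of rises and falls depends on the scale: limma on log2(FPKM + 1) called 2485 genes higher and 928 lower, and 1320 and 684 of these were members. Without the 4 DM 24h libraries 977 genes were called, 816 of them with one direction in the other pairs. The sign in 6 pairs and the call come from the same counts, so neither is evidence for the other. The plot of genes by pairs higher shows that calls sit at the ends, with 1143 called genes higher in 0 pairs and 1076 in 6. The 1143 include genes tied in a pair, most often at 0 counts, which are not members.

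**Figure D1:**
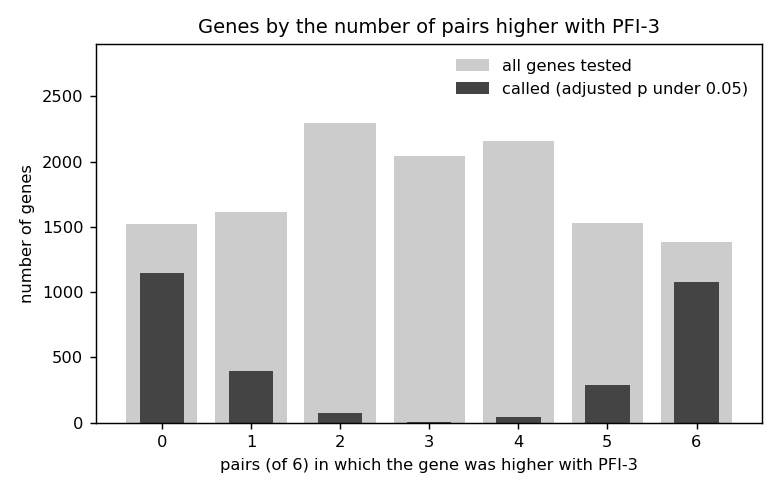
The x axis counts the pairs, of 6, in which a gene was higher with PFI-3, and the y axis counts genes. Grey bars are the 12545 genes tested and dark bars those called, 1143 of 1525 genes with 0 pairs higher and 3 of 2046 genes with 3.

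Most members moved by little. The median absolute log2 fold change of the called members was 0.384. In the model 133 were at least 2-fold higher and 125 at least 2-fold lower, and only 17 rises and 12 falls reached 2-fold in each of the 6 pairs. The replicate letters need not mark a shared culture, so a count that does not use them was also made: in 1802 genes (911 higher, 891 lower) both PFI-3 libraries lay on one side of both DMSO libraries at every stage, and 1601 of the called members were among them.

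How many members rose or fell depended on the scaling. Signs read from the deposited FPKM gave 3155 genes (2386 higher, 769 lower), unscaled expected counts gave 2989 (2125 higher, 864 lower) and DESeq2's size factors gave 2897 (1304 higher, 1593 lower). With TMM, unscaled counts and FPKM required at once, 2157 genes stayed on one side in all 6 pairs, 1405 higher and 752 lower. Of the called members 1757 did so, 1075 higher and 682 lower. Over all genes tested the median log2 change was 0.061 for unscaled counts and 0.063 on log2(FPKM + 1), against -0.003 with TMM. Both other scales thus shift values upward, so a TMM rise could hardly fail on them while a small fall could. That a rise held on the 3 scales is therefore no added support for it.

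At the edge of the sign rule the difference between pairs was negligible. Just inside were Tbcc, which folds tubulin, and 9930021J03Rik. Tbcc was at 17.1 and 18.6 CPM in the DM 24h DMSO libraries and at 17.1 and 14.4 CPM with PFI-3, and it left the rule on at least 1 of the other scales. 9930021J03Rik was at 57 and 53.9 CPM and at 57 and 61.5 CPM in the same libraries. Just outside, with 5 of 6 pairs, were Manba, a lysosomal mannosidase at 15.7 CPM in the DM 24h B libraries of both treatments, and Pcyox1l, at 34.3 CPM in the GM A libraries of both. Pcyox1l loses its call without 1 of 7 single libraries, with a log2 fold change from -0.33 to -0.23 over the 12 libraries left out in turn.

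Of the genes encoding the proteins PFI-3 binds, only Smarca2 was a member. Smarca2 was at 19.7 and 28.3 CPM in the GM DMSO libraries against 31.4 and 45 CPM with PFI-3, at 52.7 and 52.6 against 74.9 and 81.2 CPM at DM 24h, and at 68.4 and 63.6 against 81.2 and 76.4 CPM at DM 48h. The groups did not overlap at any stage, and the log2 fold change was 0.49 (SE 0.11, edgeR adjusted p = 0.00572). Smarca4 (log2 fold change 0.04, adjusted p = 0.777) and Pbrm1 (-0.01, adjusted p = 0.92) were not called. Among 26 tested SWI/SNF and PBAF subunits 2 were called members higher and 3 lower, and the 3 falls did not hold on the 3 scales, against 8.58% and 8.35% of all genes tested.

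The 12 largest rises and 11 of the 12 largest falls by the model, among members with at least 5 CPM on average and few shared reads, are in the plot of pair ratios. The rises were led by enzymes of foreign-compound metabolism (Aldh3a1, Cyp1a1, Xdh, Nqo1 and Gsta4), with the chemokines Ccl5 and Cxcl5, the integrin subunit Itgb7, the fibulin Fbln7, the galectin-3-binding protein Lgals3bp, Uba7 and the oxoglutarate dehydrogenase-like gene Ogdhl. The falls were led by matrix and secreted proteins (Postn, Fmod, Ccbe1, Col1a1, Aspn, Tnc and Pdgfb) and included the chemerin receptor Cmklr1, the muscle genes Popdc2 and Myl4, and Tdrkh, a Tudor protein of the piRNA pathway.

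**Figure D2:**
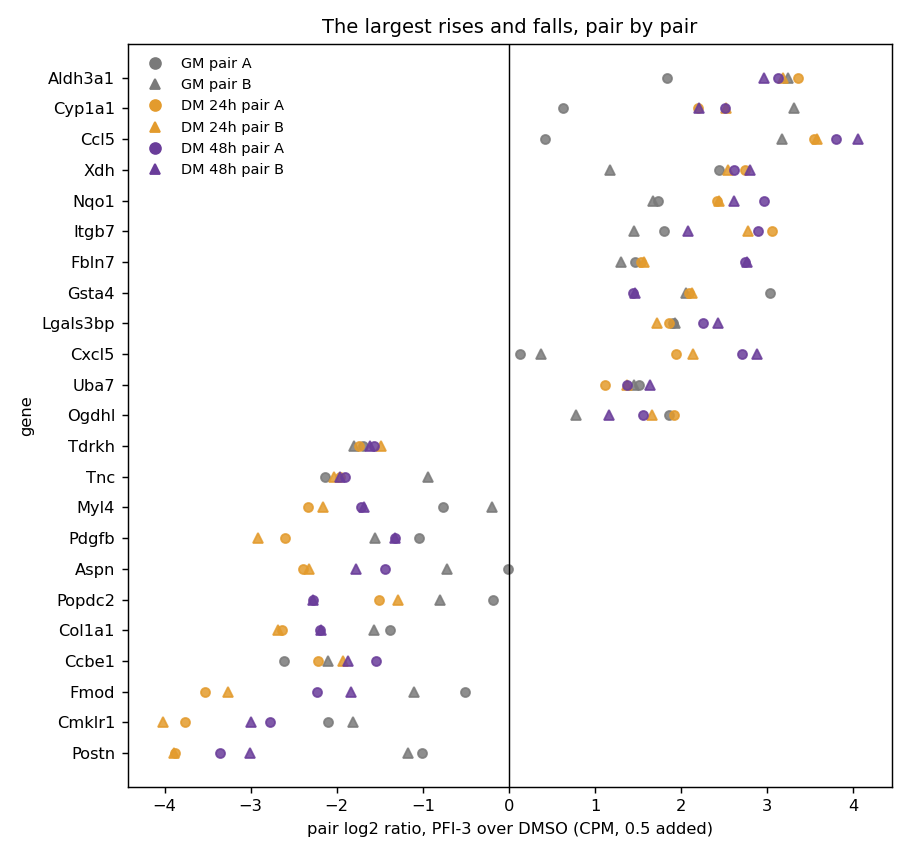
Each point is the log2 ratio of PFI-3 over DMSO in 1 pair (x axis, 0.5 CPM added), for the 12 largest rises and 11 of the 12 largest falls (y axis), with stage by colour and letter by shape. All rises lie right of 0 and all falls left of it by the rule. GM points are often nearest to 0, as for Cxcl5 and Postn. For genes at low levels at GM, such as Postn, the added 0.5 CPM also pulls these points toward 0. The model gave Postn a log2 fold change of -1.79 at GM.

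The aryl hydrocarbon receptor is a transcription factor that foreign ring compounds activate, and its targets are enzymes that oxidise and conjugate such compounds. Of 10 tested genes in a list of the receptor and its targets, 8 were called higher and 7 were called members, all 7 also on the 3 scales. The median log2 fold change of the list was 1.53, against 0.00 over all genes tested (-0.003 before rounding). The list and its direction were known from earlier results of these data. For this and every later list, the shares over all genes tested are 11.2% called higher and 12.9% called lower. For called members they are 8.58% higher and 8.35% lower.

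Aldh3a1, an aldehyde dehydrogenase, rose most of the members with at least 5 CPM and few shared reads. In the DMSO libraries it was at 12.9 and 14.3 CPM (GM), 16.6 and 18.4 CPM (DM 24h) and 9.92 and 10.6 CPM (DM 48h). With PFI-3 it was at 47.4 and 140 CPM, 176 and 171 CPM, and 90.7 and 86.6 CPM. Every PFI-3 library lay above every DMSO library, an 8.4-fold rise in the model (log2 3.07, SE 0.22, edgeR adjusted p = 3.18e-06). Cyp1a1, the cytochrome P450 by which receptor activity is often measured, was low in DMSO, at 6.35 and 3.76 CPM at GM and no more than 0.164 CPM after induction. With PFI-3 it was at 10.1 and 41.7 CPM at GM and between 2.51 and 2.82 CPM after it (log2 fold change 2.81, SE 0.44, adjusted p = 0.000816), so its level at GM differed widely between A and B.

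Cyp1b1, a related P450, went from between 197 and 296 CPM over the 6 DMSO libraries to between 426 and 624 CPM over the 6 PFI-3 libraries, without overlap (log2 fold change 1.30, SE 0.12). Both feedback genes rose too: Ahrr, the receptor's repressor, by 1.20 and Tiparp, an ADP-ribosyltransferase that restrains the receptor, by 0.56 on the log2 scale. The Tiparp rise shrank from 0.92 at GM to 0.16 at DM 48h. The receptor itself was not a member: Ahr changed by 0.35, -0.79 and -1.01 over the stages (log2), and its partner Arnt was not called (log2 fold change -0.08, adjusted p = 0.208). The 5 Ugt1a genes, which share reads and encode glucuronosyltransferases, summed to between 2.12 and 6.42 CPM in DMSO and to between 8.22 and 30.3 CPM with PFI-3.

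The receptor's core element is GCGTG on either strand. RefSeq promoters (GRCm38.p6, the same assembly as the mm10 of the submitters' processing notes) were searched from 250 bases before to 50 bases after the start site. The table held 6 of the 7 called members, and 4 of them (Ahrr, Tiparp, Cyp1a1 and Cyp1b1) had the letters, 66.7%. So did 56.2% of the 10011 tested genes with a promoter and 35.2% of all 27025 genes in the table, so the share in the members was near the background of tested genes. The 250 bases before the start of both P450 genes are shown because their products report receptor activity, with the core in capitals, 54 bases from the start in Cyp1a1 (chr9:57697363-57697612, + strand) and 76 in Cyp1b1 (chr17:79715062-79715311, - strand).
Cyp1a1: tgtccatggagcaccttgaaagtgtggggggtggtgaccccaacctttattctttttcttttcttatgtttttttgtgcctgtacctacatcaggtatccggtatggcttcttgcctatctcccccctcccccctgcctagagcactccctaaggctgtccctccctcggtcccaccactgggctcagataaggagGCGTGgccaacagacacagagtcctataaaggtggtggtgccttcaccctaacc
Cyp1b1: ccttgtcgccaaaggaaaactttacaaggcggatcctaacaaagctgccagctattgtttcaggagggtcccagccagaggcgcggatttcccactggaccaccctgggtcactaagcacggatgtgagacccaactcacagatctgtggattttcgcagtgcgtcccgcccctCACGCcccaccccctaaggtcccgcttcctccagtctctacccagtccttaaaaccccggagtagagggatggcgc

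NRF2, encoded by Nfe2l2, is the transcription factor that raises glutathione, thioredoxin and NADPH-producing genes when its inhibitor KEAP1 is modified by electrophiles. Of 26 tested genes of this pathway 18 were called higher and 1 lower, and 15 rises and 1 fall were called members, all 16 on the 3 scales. The list's median log2 fold change was 0.36.

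Nqo1, a quinone reductase that belongs to both lists, was at 71.9 and 98.1 CPM in the GM DMSO libraries against 239 and 314 CPM with PFI-3. It stood at 26.6 and 26.2 against 144 and 144 CPM at DM 24h, and at 5.53 and 6.95 against 46.5 and 45.3 CPM at DM 48h. Its level thus fell as cells differentiated in both treatments, and the gap grew, from 1.70 at GM to 2.88 at DM 48h on the log2 scale. Over the stages it was 4.8-fold higher (log2 2.26, SE 0.17, adjusted p = 3.86e-06).

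Smaller rises covered the branches of the pathway. On the log2 scale, sulfiredoxin (Srxn1) rose by 0.93, the regulatory subunit of glutathione synthesis (Gclm) by 0.39 and thioredoxin reductase (Txnrd1) by 0.51. The NADPH-producing enzymes Pgd and Me1 rose by 0.71 and 0.33. The efflux pump Abcc4 rose by 1.11, and the ferritin chains Ftl1 and Fth1, which store iron, by 0.88 and 0.69. The 1 called member that fell was Slc7a11, the cystine importer, at -0.28 (adjusted p = 0.00613). Keap1 (0.20, adjusted p = 0.0172) and Nfe2l2 (0.28, adjusted p = 0.0356) moved little. Nfe2l2 loses its call without any 1 of 8 libraries, with adjusted p from 0.00363 to 0.0906 over the 12 left out in turn. Hmox1, the heme oxygenase by which the pathway is often followed, was not called (log2 fold change 0.10, SE 0.18, adjusted p = 0.707): at GM it was at 137 and 186 CPM in DMSO and at 223 and 91.7 CPM with PFI-3.

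The antioxidant response element, searched as TGACNNNGC on both strands, was in 7 of the 15 members of the list with a promoter, 46.7%, against 16.8% of tested genes and 14% of all. Of all called members that rose and had a promoter, 17.2% held it, near the share of tested genes. Matches of this element overlapped the receptor core in 16 promoters of called members. Gclm (chr3:122245307-122245556, + strand) and Txnrd1 (chr10:82858956-82859205, + strand, 1 of its 3 promoters in the table) are shown as examples from the glutathione and thioredoxin branches, with the match in capitals 134 and 92 bases from the start. A match is a run of letters and was not tested as a binding site.
Gclm: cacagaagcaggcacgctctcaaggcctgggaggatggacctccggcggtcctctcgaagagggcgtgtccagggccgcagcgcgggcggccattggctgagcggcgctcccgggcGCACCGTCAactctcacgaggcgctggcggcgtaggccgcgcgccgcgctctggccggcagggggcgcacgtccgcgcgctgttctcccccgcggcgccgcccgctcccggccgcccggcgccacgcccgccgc
Txnrd1: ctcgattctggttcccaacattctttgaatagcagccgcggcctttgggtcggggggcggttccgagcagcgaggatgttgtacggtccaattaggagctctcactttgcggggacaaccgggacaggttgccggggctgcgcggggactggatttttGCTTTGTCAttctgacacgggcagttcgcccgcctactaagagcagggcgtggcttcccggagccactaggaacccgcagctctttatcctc

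Glutathione S-transferases couple glutathione to electrophiles. Of 18 tested, 10 were called higher and 1 lower, and 7 were called members, all higher. Gsta4, which acts on products of lipid peroxidation, was at 66.8 and 120 CPM in the GM DMSO libraries and 553 and 502 CPM with PFI-3, at 36.9 and 36.6 against 159 and 162 CPM at DM 24h, and at 20.2 and 20.4 against 55.8 and 56.9 CPM at DM 48h. That was 4.19-fold over the stages (log2 2.06, SE 0.17, adjusted p = 6.61e-06). Mgst1, the microsomal enzyme, rose by 1.76 and Gstm1 by 0.97 (log2). Gsta1, Gsta2 and Gm3776 share reads and were summed: from 15.8 and 17 to 121 and 205 CPM at GM, from 0.0793 and 0.619 to 11.4 and 13.4 CPM at DM 24h, and from 0.488 and 0.409 to 1.49 and 1.95 CPM at DM 48h. Xdh, the purine-degrading oxidase, was no higher than 12.8 CPM in any DMSO library and no lower than 29.1 CPM in any PFI-3 library (log2 fold change 2.40, SE 0.21). The metallothioneins Mt1 and Mt2, which bind zinc and copper, rose by 1.08 and 1.30, most at DM 24h.

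**Figure D3:**
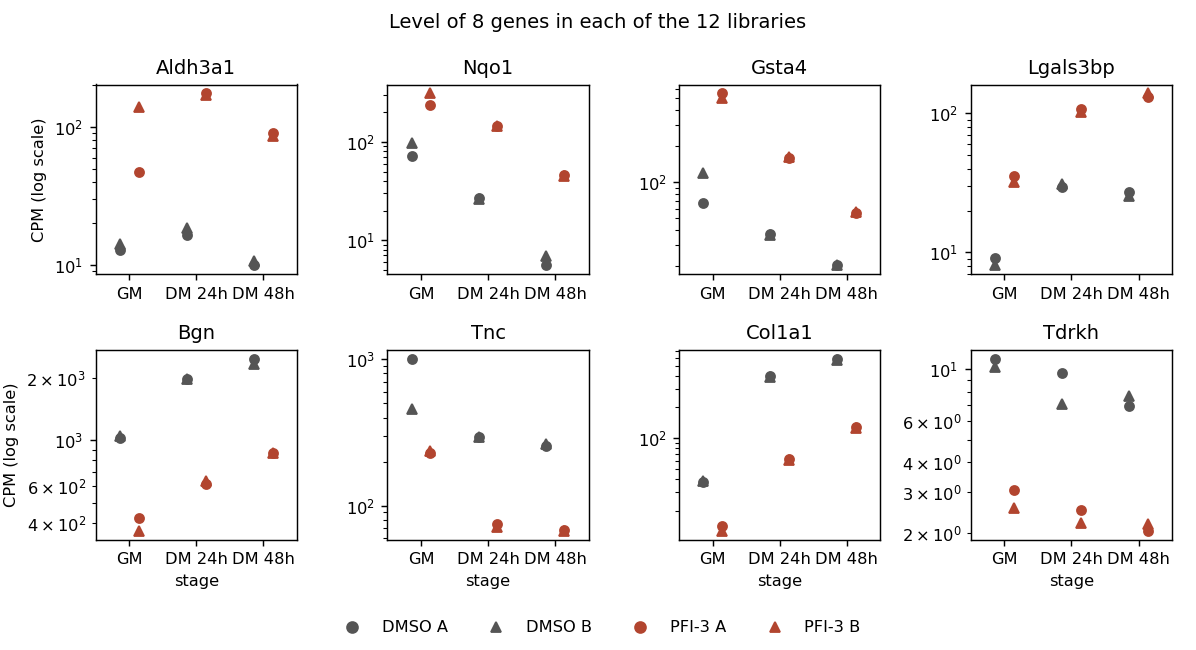
Each panel gives the CPM of 1 gene (y axis, log scale) in the 12 libraries by stage (x axis), DMSO in grey and PFI-3 in red, circles for A and triangles for B. The treatments do not overlap within any stage, and the DMSO libraries of Tnc at GM, at 1010 and 457 CPM, differ more than those of other stages.

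Interferon-stimulated genes are antiviral genes that interferon signalling switches on. Of 33 tested 15 were called higher and 1 lower, and 12 were called members, all higher and all on the 3 scales. The list's median log2 fold change was 0.53. Lgals3bp and Uba7, which are not on the list but were named among the largest rises, are interferon-inducible too. Lgals3bp was at 9.17 and 8.05 CPM in the GM DMSO libraries and 35.6 and 32 CPM with PFI-3, at 29.4 and 30.8 against 108 and 103 CPM at DM 24h, and at 27.1 and 25.5 against 131 and 140 CPM at DM 48h. Its replicates lay close together throughout, and it was 4.15-fold higher (log2 2.05, SE 0.09, adjusted p = 5.34e-08). Uba7, the activating enzyme for the ubiquitin-like ISG15, was among the steadiest rises by the SD of pair ratios with 0.5 CPM added. In the model it rose less evenly, by 2.33, 1.32 and 1.63 over the stages (log2). Its DMSO level was 0.235 and 0.517 CPM at GM, where the added 0.5 CPM lowers the ratio, and at most 5.15 CPM. Ifi44 rose by 2.16, Irf7 by 1.36, Oasl2 by 1.33, Gbp3 by 1.02 and Rtp4 by 1.00. Oasl2 averaged 12.7 CPM over the 12 libraries, but Irf7 averaged 3, Rtp4 2.6, Gbp3 2.23 and Ifi44 0.829 CPM. At GM the treatments overlapped for Ifi44, Gbp3 and Rtp4, and Irf7 was at no more than 0.997 CPM. Rtp4 loses its call without 1 of the 12 libraries (highest adjusted p = 0.0538). Isg15 itself was no member, at 1.32, 1.13 and -0.47 over the 3 stages (adjusted p = 0.458).

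Class I antigen presentation, in which the immunoproteasome cuts peptides and TAP carries them to the class I molecules, rose too. This list, and those of complement and lysosomal genes, were chosen after their values were seen, so their counts are only descriptions. Of 22 tested genes 19 were called higher, and 18 were called members on all 3 scales, with a list median of 0.60 (log2). B2m, the light chain of class I molecules, was at 169 and 176 CPM in the GM DMSO libraries and 171 and 242 CPM with PFI-3, at 215 and 232 against 282 and 276 CPM at DM 24h, and at 183 and 167 against 336 and 353 CPM at DM 48h. The rise was thus smallest at GM (0.26) and largest at DM 48h (0.98, log2), and 0.52 over the stages (SE 0.12, adjusted p = 0.00745). The heavy chains H2-K1 and H2-D1 share reads with other class I genes and rose by 0.77 and 0.92. Over the 16 class I H2 genes summed, the libraries went from between 171 and 265 CPM to between 238 and 403 CPM. Within each stage the treatments did not overlap. The peptide transporter Tap1 rose by 0.82, the transactivator Nlrc5 by 1.32, and the immunoproteasome subunits Psmb8 and Psmb9 by 2.26 and 1.53, all at low levels. H2-T22, with a rise of 0.22, was barely called (adjusted p = 0.049) and loses its call without any 1 of 10 libraries, with adjusted p from 0.0112 to 0.122. Psmb8 was under 1 CPM in every DMSO library and Psmb9 under 0.5 CPM.

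The interferon-stimulated response element, searched as GAAA, 2 bases of any kind and GAAA on both strands, was in 4 of the 13 class I members with a promoter (30.8%) and 2 of the 7 from the interferon list (28.6%), against 3.59% of tested genes. In B2m (chr2:122147437-122147686, + strand), shown because it is the class I gene with the best measured level, the match in capitals begins 139 bases before the start.
B2m: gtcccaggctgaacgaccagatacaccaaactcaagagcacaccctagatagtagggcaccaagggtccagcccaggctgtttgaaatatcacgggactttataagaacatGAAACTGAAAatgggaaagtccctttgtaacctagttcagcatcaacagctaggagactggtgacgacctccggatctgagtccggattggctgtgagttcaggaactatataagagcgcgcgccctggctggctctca

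Chemokines and complement genes rose with less regularity. Of 21 tested chemokines and cytokines 9 were called higher and 1 lower, and 5 were called members, 4 of which differed between stages. Ccl5 shows the limit at GM. It was at 29.9 and 0.369 CPM in the GM DMSO libraries and at 40.2 and 7.34 CPM with PFI-3, while later it went from between 1.3 and 1.66 CPM to between 23.1 and 29.5 CPM. The GM libraries differed more between A and B than between treatments, and its call (log2 fold change 2.51, SE 0.79, adjusted p = 0.0354) was lost without any 1 of 9 libraries, with adjusted p from 7.59e-05 to 0.0852 over the 12 left out in turn. The log2 fold change ran from 2.26 to 4.39 over these, the highest without GM DMSO library A. Cxcl5 rose by 0.29 at GM and 2.82 at DM 48h, Ccl2 by 0.41 and 2.10, Cxcl1 by 0.31 and 1.92, and Ccl7 by 0.18 and 1.12 (log2). At GM the treatments overlapped for Cxcl5 and Cxcl1 and lay apart for Ccl2.

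Of 16 tested complement genes 9 were called, all higher, and 7 were called members. C3, the central component, rose by 1.45 (log2). At GM it was at 1.18 and 2.44 CPM in DMSO and 2.18 and 2.71 CPM with PFI-3, which overlap. It was at 17.8 and 19 against 47.9 and 49.3 CPM at DM 24h and at 18.4 and 20.5 against 70.1 and 65.6 CPM at DM 48h. The proteases C1s1 and C1s2, summed because they share reads, went from between 1.96 and 14.9 CPM to between 4.51 and 62.8 CPM, and C1ra with C1rb from between 7.13 and 26.2 CPM to between 13.7 and 67.8 CPM.

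The listed markers of leukocytes, which express many of these genes, summed to at most 9.76 CPM in any library. Of 10 leukocyte markers 5 were listed, and their sum at GM was 2.95 to 5.64 CPM in DMSO and 5.31 to 9.76 CPM with PFI-3. At DM 24h it was 1.59 to 2.71 against 3.2 to 3.51 CPM, higher with PFI-3 without overlap. At DM 48h it was 3.93 to 4.31 against 3.21 to 3.28 CPM, lower with PFI-3 without overlap. The part of these markers in the rises of immune genes was not tested.

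Lysosomal genes rose by small and steady amounts. Of 40 tested 26 were called, all higher, and 21 were called members, with a list median of 0.32 (log2) and 1 member whose effect differed between stages. Ctsb, a cathepsin protease, was at 557 and 625 CPM in the GM DMSO libraries and 831 and 910 CPM with PFI-3, at 570 and 579 against 906 and 889 CPM at DM 24h, and at 565 and 580 against 786 and 790 CPM at DM 48h. Its DMSO level hardly moved over differentiation, and all 6 PFI-3 libraries lay above all 6 DMSO libraries (log2 fold change 0.56, SE 0.05, adjusted p = 1.83e-05). Hexa, a subunit of hexosaminidase, rose by 0.70, the fucosidase Fuca1 by 0.75 and progranulin (Grn) by 0.71.

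Extracellular matrix genes fell. Of 26 tested collagens 13 were called lower and 2 higher, and 10 falls and 2 rises were called members, with 7 of the 10 falls on the 3 scales. Of 48 other matrix proteins, proteoglycans and crosslinking enzymes 25 were called lower and 5 higher, and 15 falls (14 on the 3 scales) and 4 rises were called members. Called members over all genes tested were 8.58% higher and 8.35% lower, so the rises in both lists were near that share.

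Col1a1, which encodes a chain of type I collagen, was at 38.2 and 38.5 CPM in the GM DMSO libraries and 14.3 and 12.7 CPM with PFI-3. It stood at 399 and 396 against 63.8 and 61.3 CPM at DM 24h, and at 594 and 576 against 129 and 126 CPM at DM 48h. The gene rose with differentiation in both treatments and stayed 4.51-fold lower with PFI-3 over the stages (log2 -2.17, SE 0.14, adjusted p = 2.04e-06). Its partner chain Col1a2 fell by 0.82, from 451 and 669 to 237 and 337 CPM at GM and from 1430 and 1470 to 957 and 937 CPM at DM 48h. Col6a3 of the microfibrillar type VI fell by 0.82 and Col5a3 by 1.42 on the log2 scale.

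Biglycan (Bgn), a small leucine-rich proteoglycan, fell by a like amount in every pair. It was at 1020 and 1050 CPM in the GM DMSO libraries and 421 and 365 CPM with PFI-3, at 1960 and 1970 against 611 and 638 CPM at DM 24h, and at 2470 and 2320 against 868 and 863 CPM at DM 48h. The fall was 2.84-fold (log2 -1.51, SE 0.06, adjusted p = 2.54e-08), at -1.40, -1.65 and -1.47 over the stages. Its relatives Fmod and Aspn fell by 2.83 and 2.07. Both were under 1.1 CPM at GM, where Aspn left the rule on at least 1 of the other scales.

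Periostin (Postn), a secreted matricellular protein, fell most of the members with at least 5 CPM and few shared reads. It was at 42.6 and 46.4 CPM in the DM 24h DMSO libraries against 2.43 and 2.67 CPM with PFI-3, and at 108 and 103 against 10.1 and 12.4 CPM at DM 48h. At GM it was at 2.07 CPM or less in all 4 libraries. Tenascin C (Tnc) was at 1010 and 457 CPM in the GM DMSO libraries and 228 and 237 CPM with PFI-3, at 293 and 294 against 74.8 and 71.5 CPM at DM 24h, and at 257 and 263 against 68.2 and 67.4 CPM at DM 48h. It fell 3.64-fold (log2 -1.86, SE 0.15), and the effect did not differ detectably between stages (interaction adjusted p = 0.702). Lamb3, a laminin chain, fell by 1.69 and fibronectin (Fn1) by 0.38. The 4 matrix members that rose were the basement membrane linker Nid1 (0.34), thrombospondin 2 (Thbs2, 0.52), fibulin-5 (Fbln5, 0.78) and tenascin X (Tnxb, 4.23, at most 0.221 CPM in DMSO), and Fbln7, outside the list, rose by 2.22. Thbs2 loses its call without any 1 of 6 libraries, with adjusted p from 0.00122 to 0.0635.

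Most markers of fibroblasts and smooth muscle were lower too. All 11 were listed, and of 9 tested 8 were called lower and 1 higher, with 6 falls and 1 rise called members. Their sum at GM was 2240 to 5100 CPM in DMSO and 1390 to 1850 CPM with PFI-3. At DM 48h it was 7360 to 7540 CPM in DMSO and 5530 to 5590 CPM with PFI-3. Acta2 made up most of each sum, and the list also holds Des, a muscle gene. Whether fewer cells of a type or less RNA per cell underlies such a difference cannot be told apart in bulk RNA, and the part of these markers in the matrix result was not tested. Of 26 tested targets of SRF and YAP and smooth muscle genes 10 were called lower and 1 higher, and 7 falls were called members. The smooth muscle actin Acta2, which C2C12 cells also use before the skeletal form, fell from 3730 and 1380 to 1190 and 799 CPM at GM, with A and B far apart, and from 4960 and 4860 to 3350 and 3410 CPM at DM 48h. Calponin (Cnn1) fell by 1.77 and transgelin (Tagln) by 1.00 (log2). Tagln was at 752 and 180 CPM in the GM DMSO libraries and 273 and 116 CPM with PFI-3, and its call (adjusted p = 0.0415) is lost without any 1 of 7 libraries, with adjusted p from 0.00696 to 0.128. Without GM DMSO library A the log2 fold change of Tagln was -0.57 and that of Cnn1 -1.14.

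Other secreted and signalling genes fell, several of them by amounts that differed between stages. Cmklr1 was at 2.27 and 3.25 CPM in the GM DMSO libraries and 0.145 and 0.57 CPM with PFI-3, at 51.7 and 54.8 against 3.35 and 2.9 CPM at DM 24h, and at 71.9 and 66.3 against 10.1 and 7.89 CPM at DM 48h, 10.5-fold over the stages. Ccbe1, a secreted protein of lymphatic development, was higher at GM than later in DMSO (42.6 and 23.7 CPM) and fell 4.95-fold, with no detected difference between stages (interaction adjusted p = 0.56). The growth factor Pdgfb fell by 1.96 and follistatin (Fst), which blocks myostatin, by 1.51. In the Notch pathway 8 of 19 tested genes were called lower and 1 higher, with 5 falls and 1 rise called members. Of all genes tested 12.9% were called lower and 11.2% higher, with 8.35% and 8.58% called members. The receptor Notch1 fell by 0.70, its feedback target Nrarp by 1.57 and Hes1 by 0.49, the last with a sign that failed on at least 1 of the other scales.

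Cholesterol is made from acetyl-CoA by a chain of enzymes whose genes SREBP2 (Srebf2) switches on. Of 24 tested genes of synthesis and uptake 15 were called, all lower, and 14 were called members, 12 of them on the 3 scales. The list's median log2 fold change was -0.63, -0.81 and -0.13 over GM, DM 24h and DM 48h. Dhcr7, the last enzyme of the pathway, was at 37.5 and 55.5 CPM in the GM DMSO libraries and 29 and 35.3 CPM with PFI-3, at 130 and 130 against 60.6 and 60.3 CPM at DM 24h, and at 142 and 133 against 76.3 and 69.2 CPM at DM 48h. The GM libraries of a treatment differed from each other about as much as the treatments did, and the later ones differed far less (log2 fold change -0.86, SE 0.11, adjusted p = 0.000179). Phosphomevalonate kinase (Pmvk) fell by 0.94, lanosterol synthase (Lss) by 0.83 and Srebf2 itself by 0.41. The regulator Insig1 fell by 0.78, the synthase Hmgcs1 by 0.75 and the decarboxylase Mvd by 0.62. Of these Hmgcs1 loses its call without any 1 of 6 libraries (adjusted p from 0.00745 to 0.0754) and Insig1 without any 1 of 3 (0.0048 to 0.0582).

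Fatty acid genes followed. Of 14 tested genes of fatty acid synthesis and LXR targets 8 were called, all lower, and 6 were called members, 4 on the 3 scales. Srebf1, their regulator, fell by 0.75. The synthase Fasn fell by 0.53 and the carboxylase Acaca by 0.54, with Acaca at -0.29, -1.02 and -0.30 over the stages. The desaturase Scd2 went from 4790 and 4780 to 1980 and 1930 CPM at DM 24h and from 503 and 1020 to 476 and 649 CPM at GM, and its sign failed on at least 1 of the other scales. The LXR target Abca1, a cholesterol exporter, was not a member or called (adjusted p = 0.111), with log2 changes of 1.14, -0.50 and -3.00 over the stages on levels of at most 4.74 CPM.

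Muscle genes fell, but few kept one direction at every stage. Of 54 tested genes of the contractile apparatus 48 were called lower, yet only 13 of these were members, 12 on the 3 scales, and 10 of the 13 differed between stages. The other 35 called genes had a tie or an opposite pair, and many contractile genes are near 0 counts at GM. Tnnt2, cardiac troponin T, which young myotubes express, was at 67.6 and 51.7 CPM in the GM DMSO libraries and 16.4 and 16.2 CPM with PFI-3, at 325 and 349 against 94.7 and 109 CPM at DM 24h, and at 1410 and 1510 against 887 and 931 CPM at DM 48h. It was thus lower before induction as well as after, with log2 changes of -1.87, -1.73 and -0.68. The slow troponin C gene Tnnc1 fell by 1.43, 1.92 and 0.98, and Myl4, the embryonic light chain, by 0.77, 2.33 and 1.70. At GM Myl4 was at only 1.1 and 0.886 CPM in DMSO and 0.436 and 0.712 CPM with PFI-3, so its fall there rests on few counts. The giant proteins nebulin (Neb) and titin (Ttn) fell by 0.98 and 0.96 over the stages. At GM Neb was at no more than 1.02 CPM and Ttn at no more than 2.88 CPM.

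Of 23 tested myogenic regulators 12 were called lower and 2 higher, with 9 falls (8 on the 3 scales) and 2 rises called members. Called members over all genes tested were 8.58% higher and 8.35% lower, so the rises were near that share. Myod1, which commits cells to muscle, was at 153 and 180 CPM in the GM DMSO libraries and 113 and 158 CPM with PFI-3, at 253 and 273 against 208 and 200 CPM at DM 24h, and at 463 and 428 against 378 and 383 CPM at DM 48h. The change was small, with the treatments overlapping at GM (log2 fold change -0.30, SE 0.08, adjusted p = 0.0146). Pax7, a marker of muscle stem cells, fell by 0.53, Pitx3 by 1.03 and Mef2d by 0.35. Myog, which drives terminal differentiation, was not a member. It was below 1 CPM and slightly higher with PFI-3 at GM, and fell from 847 and 838 to 412 and 400 CPM at DM 24h and from 1820 and 1850 to 1210 and 1180 CPM at DM 48h.

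At the cell surface, Cdh15 (M-cadherin) fell by 1.39, 0.90 and 0.34 and the acetylcholine receptor subunit Chrna1 by 1.45, 1.00 and 0.40 over the stages, the latter with shared reads. Popdc2, a muscle membrane protein, was under 0.4 CPM at GM and fell by 2.16. The 14 myoblast and myotube markers summed to 1470 CPM in both GM DMSO libraries and 944 to 1050 CPM with PFI-3, to 6150 to 6210 against 3470 to 3500 CPM at DM 24h, and to 21900 to 22200 against 15500 to 15900 CPM at DM 48h. The part of this lower level of muscle RNA in the other falls was not tested.

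Genes of division did not form a group with one direction at every stage. Of 44 tested S phase genes edgeR called 0, with 9 at an unadjusted p under 0.05, DESeq2 called 4 and limma voom 2. Of 53 genes of G2 and M phase edgeR called 2, both lower, and none of either list was a member. Their medians were near 0 before induction (-0.02 and -0.12), below 0 at DM 24h (-0.105 and -0.234) and 0.96 and 0.92 in the DM 48h libraries. Of 24 tested cell cycle inhibitors and cyclins 3 were called higher and 5 lower, and 1 rise and 4 falls were called members. Of all genes tested 11.2% were called higher and 12.9% lower, with 8.58% and 8.35% called members. Cdkn1c, the inhibitor p57, was at 286 and 300 CPM in the DM 24h DMSO libraries against 82.9 and 81.1 CPM with PFI-3, and at 1030 and 1030 against 340 and 342 CPM at DM 48h, and fell 2.98-fold over the stages. Cdkn1a, the inhibitor p21, fell by 0.51 (log2), with a sign that failed on at least 1 of the other scales. Cyclin D2 (Ccnd2) was at 41.7 and 30.6 CPM in the GM DMSO libraries and 70.5 and 58.5 CPM with PFI-3, at 12.3 and 12.2 against 38.5 and 39.3 CPM at DM 24h, and at 6.91 and 7.77 against 33.7 and 36.7 CPM at DM 48h. Its DMSO level dropped with differentiation while the gap widened. Of 78 cytosolic ribosomal protein genes 1 was a called member higher and 1 lower.

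**Figure D4:**
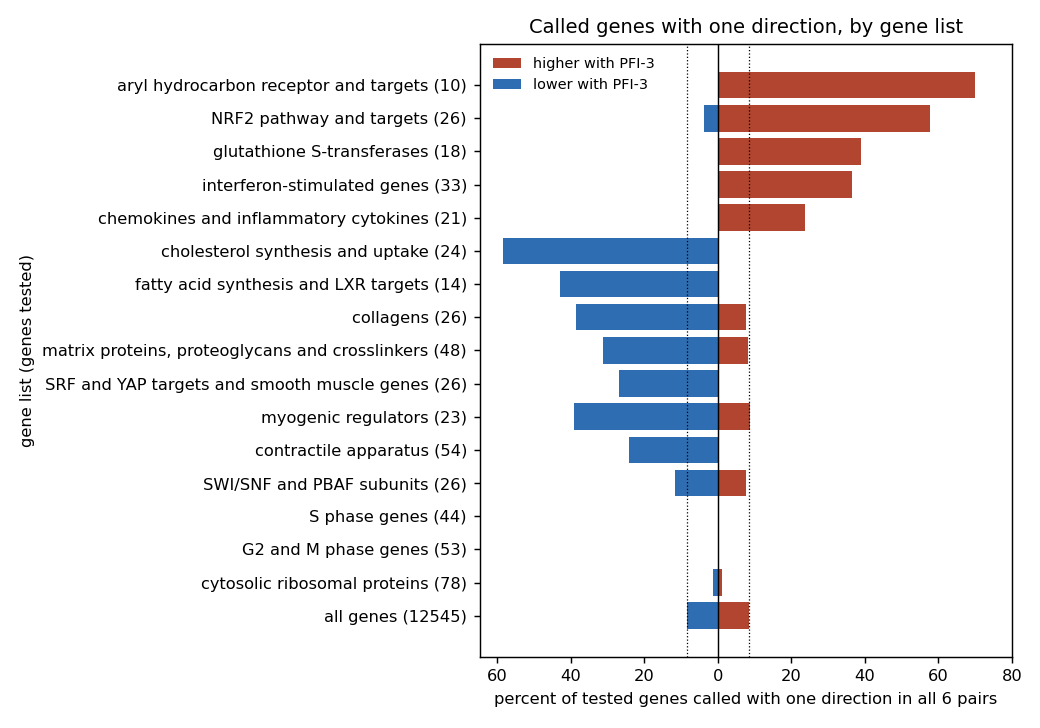
Bars give the percent of tested genes in each list (y axis, number tested in parentheses) that were called with one direction in all 6 pairs, higher to the right and lower to the left. Dotted lines mark all genes tested, 8.58% higher and 8.35% lower. The receptor, NRF2 and transferase lists lie to the right, the cholesterol list to the left, and the 2 lists of division hold no called member.

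One direction did not mean one size. A term for stage by treatment passed at an adjusted p under 0.05 in 2209 of the 12545 genes (17.6%), in 278 of the 2123 called members (13.1%) and in 260 of the 903 genes called without one direction (28.8%). The sign rule itself favours genes with like effects, so the lower share among members is a description. Of the 278 members, 148 were least affected at GM, 41 at DM 24h and the other 89 at DM 48h. Over all called members the median absolute log2 change was 0.332, 0.429 and 0.365 at GM, DM 24h and DM 48h.

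The steadiest members, those at least 2-fold changed with the smallest SD of the 6 pair ratios, were Uba7, the ubiquitin ligase Trim62, the small GTPase Rab32 and adducin 3 (Add3) among the rises, and Tdrkh, the actin-binding Aif1l, Bgn and Lamb3 among the falls. Uba7 was at 0.235 and 0.517 CPM in the GM DMSO libraries, where the 0.5 CPM added to the ratios evens them out. Its model changes were 2.33, 1.32 and 1.63 over the stages (log2). Tdrkh was at 11.1 and 10.2 CPM in the GM DMSO libraries and 3.06 and 2.56 CPM with PFI-3, at 9.59 and 7.12 against 2.51 and 2.21 CPM at DM 24h, and at 6.99 and 7.69 against 2.04 and 2.19 CPM at DM 48h. The log2 changes were -1.92, -1.82 and -1.79 over the stages. Aif1l fell by 1.28, 1.25 and 1.12, although its DMSO level rose from 105 and 72.4 CPM at GM to 270 and 284 CPM at DM 48h. Rab32 rose by 1.05, 1.05 and 1.36 and Add3 by 1.19, 0.82 and 1.04.

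Other members kept a sign with a size that changed across stages. Ampd3, an AMP deaminase, was at 30.2 and 34.5 CPM in the GM DMSO libraries and 74.3 and 76.9 CPM with PFI-3, but at 47.3 and 46 against 52 and 50.6 CPM at DM 48h. Wisp1, a secreted matricellular protein, went from -1.23 at GM to -0.26 at DM 48h (log2). The microtubule-binding Nav1 went the other way, from -0.42 to -1.21. Iqgap3, a scaffold of dividing cells, rose by 0.18, 0.04 and 1.08, so its call (log2 fold change 0.42, adjusted p = 0.0416) came from DM 48h. It was lost without any 1 of 5 libraries, with adjusted p from 0.0396 to 0.102 over the 12 left out in turn.

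**Figure D5:**
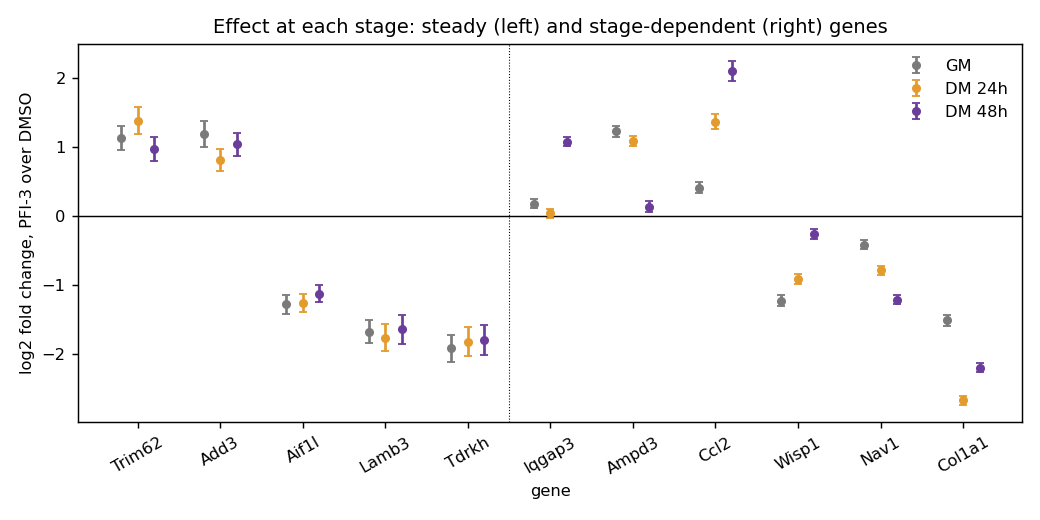
The y axis gives the log2 fold change of PFI-3 over DMSO at each stage (colours) with its standard error as bars, for 5 steady genes left of the dotted line and the 6 members with at least 5 CPM and few shared reads that have the smallest interaction p right of it (x axis). Trim62 to Tdrkh keep like values, while Iqgap3 goes from 0.18 to 1.08 and Wisp1 from -1.23 to -0.26.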

How the data were processed

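RNA was measured in 12 libraries. The authors deposited per library an expected count and an FPKM value (fragments per kilobase, scaled to library size) per gene, per the file headers. Per the submitters' processing notes the tools were HISAT, StringTie, Cufflinks, Bowtie, RSEM and DESeq2 and the build mm10; versions and roles are not given in the sources used here. A gene missing from a table was taken as 0, which the headers do not state. Expected counts were rounded for tests; 93.5% to 93.9% of the values were whole.

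Counts were scaled by TMM, filtered with filterByExpr over the 6 groups and tested with edgeR 4.0.16 (R 4.3.3; additive model of stage and treatment; 6-group model for stage effects and interaction), 2 libraries a group. Pair signs used CPM of unrounded counts. DESeq2 1.42.0 and limma 3.58.1 served as alternatives, with other scalings, filters and sign rules, libraries left out and stages left out. On simulated counts for 12545 genes with 200 changed 2-fold, the additive test recovered 94.5% and the interaction test 65%. Of the genes each test called there, 5.03% and 9.09% were false.

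Named genes follow a rule: the targets; the 12 largest rises and 12 largest falls among called members with at least 5 CPM and whole counts in most libraries; the 4 steadiest and the 3 most uniformly large each way; the 6 smallest interaction p; families with shared reads; list members by size; and genes at the edge of the sign rule. Not every gene the rule allows is printed (a few genes are not reported here), and some smaller members were named for their role after their values were seen. Members and lists were chosen with earlier results of these data known.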

Additional observations from a re-analysis of the deposited data

Results flagged for a closer look

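The PFI-3 effect on 48 genes named above differed between the 3 stages by the interaction test itself (edgeR, 2 libraries a group). Of these 44 are called members, so their direction was shared while their size was not. The 4 others are Smarca4, Ahr, Myog and Abca1, with adjusted p of 0.0152 for Smarca4, 0.000598 for Ahr, 0.00335 for Myog and 0.00279 for Abca1.

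Among genes of foreign-compound and redox metabolism the adjusted p was 0.0139 for Cyp1b1, 0.00398 for Tiparp, 0.0116 for Nqo1, 0.0224 for Me1, 0.00283 for Abcc4, 0.00663 for Ftl1, 0.00149 for Fth1, 0.000702 for Mt1 and 0.00314 for Mt2. Tiparp had its largest rise at GM, Cyp1b1 and Nqo1 at DM 48h, and both metallothioneins at DM 24h. Among immune and adhesion genes it was 0.0164 for Lgals3bp, 0.0209 for B2m, 0.0315 for H2-K1, 0.0436 for H2-D1, 0.00489 for Cxcl5, 8.48e-05 for Ccl2, 0.00667 for Ccl7, 0.0325 for Cxcl1, 0.023 for C3, 0.00536 for Itgb7 and 0.00813 for Fbln7. The largest rise of B2m, H2-K1, H2-D1 and of the 4 chemokines was at DM 48h.

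Among matrix and signalling genes it was 0.0283 for Postn, 7.34e-05 for Col1a1, 0.00105 for Col5a3, 0.023 for Fmod, 0.0198 for Fbln5, 0.0211 for Cmklr1, 0.00588 for Pdgfb, 0.000301 for Nav1, 0.000287 for Wisp1, 0.0303 for Nrarp and 0.0165 for Fst. Col1a1, Postn, Fmod, Cmklr1 and Pdgfb fell most at DM 24h. Among lipid genes it was 0.00136 for Fasn and 0.00052 for Acaca, both with their largest fall at DM 24h. Among muscle genes it was 0.00419 for Myl4, 0.000358 for Tnnc1, 0.000434 for Tnnt2, 0.00196 for Neb, 0.000994 for Ttn, 0.00202 for Cdh15 and 5.29e-05 for Chrna1, and Tnnt2, Cdh15 and Chrna1 had their largest fall at GM. Among the remaining genes it was 0.0019 for Ccnd2, 0.0302 for Cdkn1c, 5.29e-05 for Iqgap3 and 8.14e-05 for Ampd3.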

How the results depend on the processing

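Calls rested on 2 libraries a group and about as many reads in each, so small changes of genes with few counts were not detectable. The counts of called genes and members stayed within 1.5 times under DESeq2 (3180 and 2182), limma voom, both low-count settings, both FPKM pseudocounts and the other scalings, though the split into higher and lower moved on FPKM (2447 and 888 called genes with a pseudocount of 0.1, against 1409 and 1617), and no called member changed sign under DESeq2, limma on log2(FPKM + 1) or the 6-group model. A change of at least 0.1 (log2) in each pair left 1361 genes with one direction and 1247 called members, and a lack of overlap at every stage left 1802 genes. Leaving out a stage leaves fewer pairs to satisfy. Without GM 5611 genes had one direction and 3637 of them were called, without DM 48h 5250 had one direction, and without DM 24h 977 genes were called, 816 of them with one direction. Without DM 24h 35 of the named genes lose their call, and the cause was not tested. Leaving out each library in turn gave 2268 to 3230 called genes, 3191 to 3808 with one direction in the remaining pairs, 1768 to 2517 both, and 137 to 583 members that differ between stages, the fewest without DM 48h DMSO library A and the most without GM DMSO library A. Of 121 called genes in the text 81 kept the call under every alternative, 40 lost it under at least 1 and 0 changed sign. Called members were chosen for one sign in all 6 pairs of these same libraries. The lack of sign changes, here and under the other tests above, was therefore nearly fixed by the rule and is no support.

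The letters were not shown to pair the samples. Same-letter libraries deviated together at GM (correlation 0.488) but not at DM 24h (0.0177) or DM 48h (0.037), over 10656 genes. With a replicate block by pair 2478 genes were called and 1924 members, and with a replicate block by letter 2811 and 2060.

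Of genes without a call, the log2 fold change of Smarca4 was -0.111 without DM 48h and -0.015 to 0.083 with single libraries left out. That of Pbrm1 was 0.063 and 0.066 in limma on log2(FPKM + 1) and log2(FPKM + 0.1), 0.082 without DM 24h, and -0.055 to 0.022 with single libraries left out. That of Hmox1 was -0.056 without DM 24h and -0.066 to 0.26 with single libraries left out, and that of Abca1 was 0.13 without DM 48h. Abca1 was called in the 6-group model (adjusted p = 0.0497), by limma voom (0.0428), without GM PFI-3 library B (0.0305) and without GM (log2 fold change -1.91, adjusted p = 0.00978). The cause was not tested.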
